A study of Mus musculus with 18 samples.

Results

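BMS961 was compared with BMS641 in F9 cells at matched times. Both compounds are synthetic agonists of the retinoic acid receptors (RARs): per the series' design text, BMS961 acts on RARγ and BMS641 on RARβ. The comparison took every array labelled with either agent and paired them by time, which gave 8 of the 18 arrays in the series: 4 of BMS961 and 4 of BMS641, in 4 pairs at 2, 6, 24 and 48 h. BMS641 served as the time-matched control, so that no difference between culture times entered a pair.

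F9 is a mouse embryonal carcinoma line, a tumour-derived stem cell, and all groups were cells of that 1 line on gelatine-coated plates in medium with foetal calf serum. BMS961 was added at 0.1 µM and BMS641 at 1 µM, a 10-fold difference in dose, so the agent and its dose cannot be told apart here. Each agent and time had 1 array of total RNA. The only vehicle arrays, 2 of ethanol at 48 h, and the 8 arrays of ATRA and BMS753 were not part of the pairs. Nothing in the labels says whether the times of 1 agent came from separate cultures, and all p-values below measure the spread of the paired differences between times, not between repeats of a treatment.

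Retinoic acid enters the cell and binds RARα, RARβ or RARγ, which sit on DNA as heterodimers with RXR at pairs of a short repeated motif. Without ligand the dimer recruits corepressors, and an agonist exchanges them for coactivators. Among the classic direct targets are the gene of RARβ itself and Cyp26a1, whose product degrades retinoic acid. In F9 cells retinoids drive differentiation into primitive endoderm, with loss of embryonal carcinoma genes and, with time, synthesis of basement membrane, and RARγ is known as a main mediator of that response.

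Levels were log2 values, and a difference of 1 on that scale is 2-fold. The markers of F9 cells were high on all 8 arrays: the mean log2 level of Pou5f1, Sox2, Nanog, Zfp42, Lin28a and Utf1 ran from 10.57 to 11.07 with BMS961 and from 11.06 to 11.10 with BMS641. Mean log2 levels of the markers of other fates lay between 5.0 and 5.32 for 3 mesoderm genes, between 5.76 and 6.34 for 4 fibroblast genes and between 6.59 and 7.01 for 4 neural genes over the same arrays. The mean of 7 endoderm markers was 6.23 to 6.34 with BMS641 and 6.30 to 8.89 with BMS961. The vehicle arrays stood apart from each other: 311 genes were 2-fold or more higher and 354 lower in vehicle replicate 1 than in replicate 2. Against vehicle replicate 2, BMS641 differed 2-fold or more at 2 genes upward and 3 downward at 2 h, and at 39 upward and 25 downward at 48 h. Against vehicle replicate 1 the 48 h counts for BMS641 were 206 upward and 173 downward.

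The number of genes 2-fold or more apart between the agents was larger at each later time. At 1.5-fold it was not larger at 6 h than at 2 h, with 252 genes higher and 76 lower at 2 h and 173 and 152 at 6 h. Of 19938 genes, BMS961 was 2-fold or more above BMS641 at 19 genes at 2 h (0.0953% of those measured), 44 at 6 h (0.221%), 153 at 24 h (0.767%) and 321 at 48 h (1.61%). It was 2-fold or more below BMS641 at 7 genes at 2 h (0.0351%), 11 at 6 h (0.0552%), 102 at 24 h (0.512%) and 152 at 48 h (0.762%). A single time rests on 1 array of each agent and has no replicate check, so these are counts with no p. Most genes hardly differed, the median absolute difference on the log2 scale being between 0.13 and 0.17 at the 4 times. In bulk RNA a change in the share of cells that express a gene and a change of RNA per cell cannot be told apart.

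**Figure D1:**
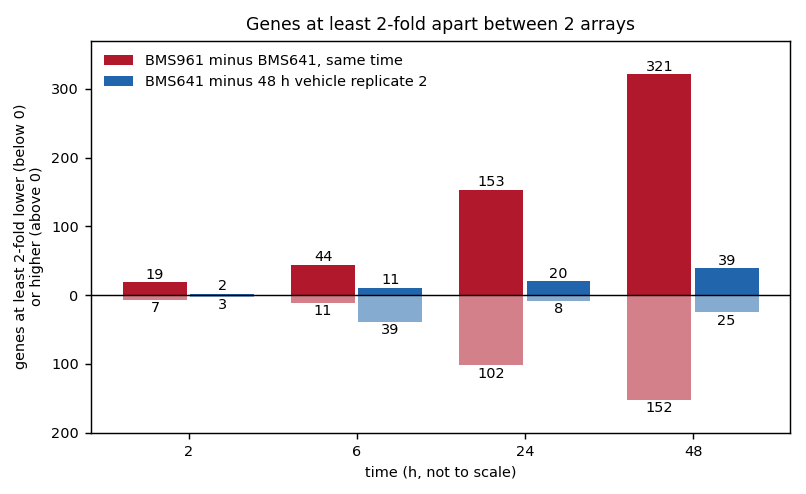
Number of genes 2-fold or more apart between 2 arrays, higher above 0 and lower below it, by time, with BMS961 against BMS641 of the same time in red and each BMS641 array against vehicle replicate 2 in blue. The red bars go from 19 higher and 7 lower at 2 h to 321 and 152 at 48 h, while the blue bars stay at or below 39 in either direction.

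Sorted by the first time from which the difference held to 48 h, 10 genes were higher from 2 h (0.0502% of those measured), 19 from 6 h (0.0953%), 84 from 24 h (0.421%) and 208 at 48 h only (1.04%). In the other direction 1 gene was lower from 2 h (0.00502%), 7 from 6 h (0.0351%), 63 from 24 h (0.316%) and 81 at 48 h only (0.406%). The 208 genes of the last class had median differences of 0.03 at 2 h, 0.01 at 6 h and 0.53 at 24 h before the 1.25 at 48 h. The 84 genes higher from 24 h already had a median of 0.43 at 6 h. The first 10 genes had medians of 1.15, 1.63, 1.91 and 2.05 at the 4 times.

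The 10 genes that were 2-fold higher at 2 h and at every later time were Cyp26a1, Aqp3, Slc15a1, Dusp9, Plk3, Pmepa1, Stra8, Kit, Adgra2 and Rarb. Cyp26a1, the cytochrome P450 that hydroxylates retinoic acid, had log2 levels of 8.04, 9.07, 8.94 and 9.14 at 2, 6, 24 and 48 h of BMS961, against 4.94, 4.86, 4.78 and 4.87 with BMS641. Its levels with BMS641 lay near those of the vehicle arrays (5.05 and 4.85), and every BMS961 array was above all of these. Over the 4 pairs it rose by 3.94 ± 0.19 (SE) on the log2 scale, 15.3-fold (adjusted p = 0.000646, limma), and the difference of 3.11 at 2 h was the largest of any gene at that time.

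Rarb, the gene of RARβ, had log2 levels of 5.95, 6.52, 8.05 and 8.52 with BMS961 and of 4.92, 5.03, 4.92 and 4.97 with BMS641. The agents did not overlap, and with BMS961 each time stood above the one before. The difference grew from 1.03 and 1.5 at 2 and 6 h to 3.14 and 3.55 at 24 and 48 h. The late mean was 3.34 ± 0.15, 10.2-fold (adjusted p = 0.000141), and late minus early was 2.08 (adjusted p = 0.0146), while the mean over all times missed the threshold (2.30 ± 0.39, adjusted p = 0.0622).

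These retinoid targets, Rarb and Cyp26a1, were the only ones of the 7 early genes with a promoter window in RefSeq (GRCm38.p6) that held a direct repeat of the receptor's 6-base motif with a spacer of 5 bases. The windows ran from 250 bases before to 50 bases after a gene's start. The 6-base motif searched was AGGTCA in its canonical form, with AGTTCA as a known variant, GGGTCA as another and GGTTCA as the last, in any pairing and on both strands, and spacers of 1, 2 and 5 bases were looked for separately. The repeat with a spacer of 5 was present for 11 of 15563 tested genes with a window (0.0707%). Spacers of 1 and 2 bases were found in 0 of the 7, against 0.238% and 0.09% of tested genes. Of the 12 genes with a window among those higher from 6 h, 0 held any of the 3 repeats. The 250 bases before the start are shown for both genes, 5′ to 3′ on the gene's strand, with the repeat in capitals. That of Rarb lies at chr14:16575477-16575726 on the minus strand and that of Cyp26a1 at chr19:37697558-37697807 on the plus strand.
Rarb: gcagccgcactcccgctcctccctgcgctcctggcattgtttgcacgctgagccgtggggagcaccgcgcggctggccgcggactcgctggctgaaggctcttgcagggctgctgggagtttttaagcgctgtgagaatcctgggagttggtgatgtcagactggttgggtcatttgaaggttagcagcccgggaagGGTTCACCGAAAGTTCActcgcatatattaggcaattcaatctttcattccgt
Cyp26a1: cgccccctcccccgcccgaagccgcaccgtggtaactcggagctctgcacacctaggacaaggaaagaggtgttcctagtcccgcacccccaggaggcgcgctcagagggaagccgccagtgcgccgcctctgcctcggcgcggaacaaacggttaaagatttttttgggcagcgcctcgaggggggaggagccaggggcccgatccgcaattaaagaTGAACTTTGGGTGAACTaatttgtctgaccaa
Read in the direction of the motifs, with these in capitals and the spacer in lower case, the elements were as follows, and 15 of their 17 bases were identical.
Rarb element: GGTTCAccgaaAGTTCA
Cyp26a1 element: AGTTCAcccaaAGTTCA
The Rarb repeat sat 53 to 37 bases before the start on the gene's own strand, and the Cyp26a1 repeat 32 to 16 bases before it on the opposite strand. A match of letters is a description of the sequence and says nothing of occupancy.

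Aqp3, a channel for water and glycerol, stood second in size among the early genes. Its log2 levels were 8.78, 9.91, 10.92 and 10.78 with BMS961 and 6.30, 6.87, 6.72 and 6.96 with BMS641, with no overlap. It rose by 3.39 ± 0.25 over all times, 10.5-fold (adjusted p = 0.00657). The vehicle arrays were at 8.88 in replicate 1 and 5.95 in replicate 2, on either side of every BMS641 array.

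Stra8, a retinoid-induced gene needed for entry into meiosis, started lower and gained more. Its log2 levels with BMS961 were 5.98, 8.25, 10.24 and 10.37, and with BMS641 4.87, 4.62, 5.80 and 6.27. It was the only one of the 10 genes whose agents overlapped across times, the 2 h array of BMS961 lying below the 48 h array of BMS641. Within pairs the differences were 1.11, 3.63, 4.44 and 4.11, with a mean of 3.32 ± 0.47 over all times (adjusted p = 0.04). BMS641 itself was 1.39 higher for Stra8 at 48 h than at 2 h.

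Dusp9, a phosphatase of MAP kinases, had log2 levels of 9.63, 10.44, 11.33 and 11.38 with BMS961 and of 8.45, 9.01, 9.4 and 9.54 with BMS641. The levels were higher at later times with both agents, and the paired difference was 1.18 at 2 h and 1.84 at 48 h. It rose by 1.60 ± 0.13 over all times (adjusted p = 0.00729). Plk3, a polo-like kinase of the stress response, kept a nearly even difference of 1.16, 1.08, 1.20 and 1.40 (1.21 ± 0.08 over all times, adjusted p = 0.00585). Its log2 levels were 8.91 to 9.14 with BMS961 and 7.51 to 7.94 with BMS641.

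Pmepa1, a membrane protein that restrains SMAD signalling, rose by 1.40 ± 0.11 over all times (adjusted p = 0.00729). Kit, the receptor of stem cell factor, rose by 1.45 ± 0.12 (adjusted p = 0.00729), with log2 levels of 8.53 to 9.78 against 7.46 to 8.29. Slc15a1, a transporter of small peptides, rose by 1.49 ± 0.14 (adjusted p = 0.0144), and its difference was largest at 6 h (1.95) and smallest at 48 h (1.04). Adgra2, an adhesion receptor that takes part in WNT7 signalling, rose by 1.65 ± 0.18 (adjusted p = 0.0195), and its difference was larger at each later time, from 1.05 to 2.25. For 9 of the 10 genes, all but Stra8, the levels with the 2 agents did not overlap over the 4 times. The genes were chosen for their differences on these same arrays, so the lack of overlap follows in large part from that choice. Overlap was not counted over all genes.

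**Figure D2:**
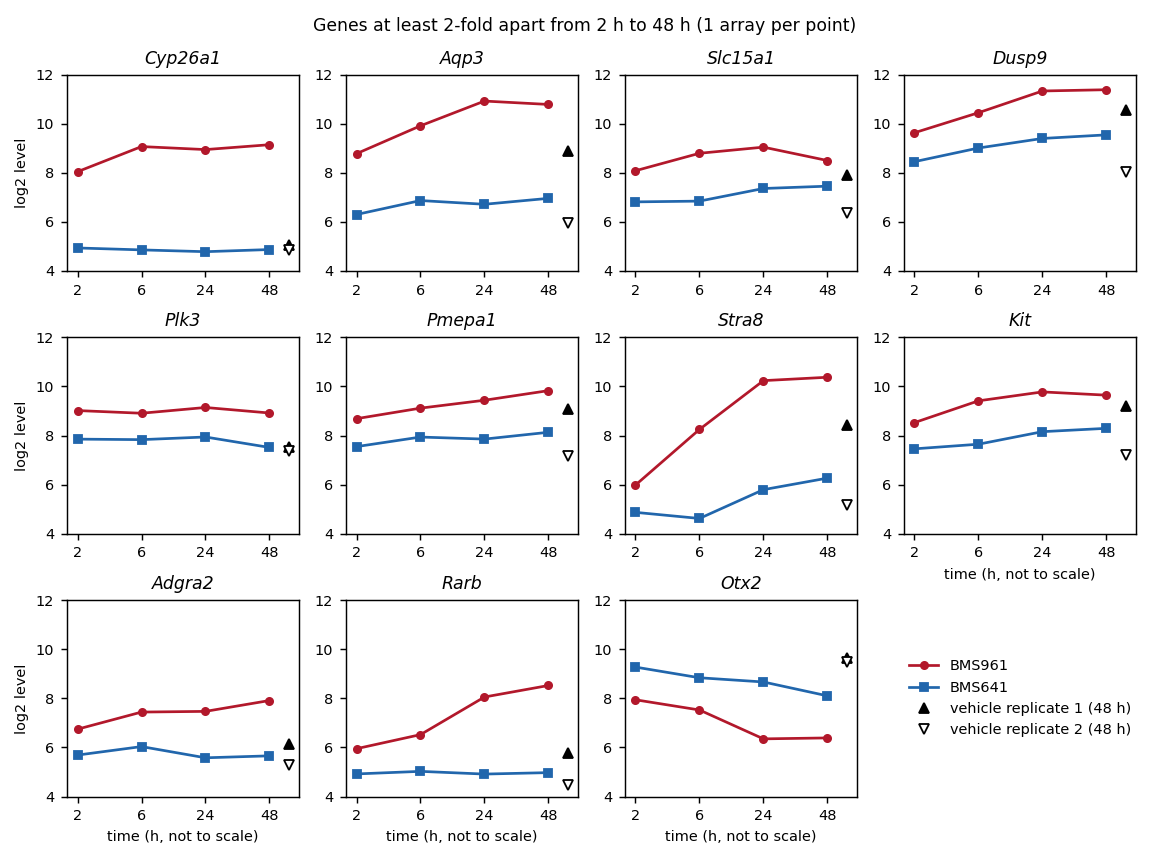
Log2 level of the 11 genes that differed 2-fold or more from 2 h to 48 h, by time, with BMS961 and BMS641 as lines of 1 array per point and the vehicle arrays as separate marks at 48 h. Cyp26a1 was near its highest level by 6 h, Rarb and Stra8 climbed up to 48 h, and Otx2 was lower with BMS961 at every time.

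Otx2 was the 1 gene lower from 2 h on. It encodes a homeobox factor of the epiblast and of the anterior neural plate. Its log2 levels were 7.94, 7.53, 6.35 and 6.39 with BMS961 and 9.27, 8.84, 8.67 and 8.10 with BMS641, without overlap, and the vehicle arrays were higher still at 9.63 and 9.46. It fell by 1.67 ± 0.16 over all times on the log2 scale (adjusted p = 0.0144), 3.18-fold. The difference was 1.33 to the lower side at 2 h already, and with BMS641 alone the level at 48 h was below that at 2 h by more than 1 unit.

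From 6 h on, 19 genes were higher: Acp5, Arhgef10, Calcoco2, Camk2n1, Cdk15, Cidea, Dhrs3, Dmrt1, Enpp4, Fam81a, Gata6, Gca, Grasp, Kyat3, Nt5e, Qsox1, Sesn1, Slc26a2 and Stox2. Dhrs3, which reduces retinaldehyde back to retinol, had differences of 0.40, 1.04, 2.54 and 3.25. Gata6, a zinc finger factor that specifies primitive endoderm, had differences of 0.64, 1.09, 3.21 and 4.52. Calcoco2, an autophagy receptor, went from 0.42 at 2 h through 1.59 and 4.13 to 4.89 at 48 h, the largest difference of the 19 at that time. A second probe set of Calcoco2 had smaller differences of 0.20, 0.97, 2.84 and 2.74, and a second one of Stox2 had 0.26, 0.35, 1.44 and 0.97. By these neither gene was 2-fold higher at 6 h.

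Others of the 19 levelled off after 6 h. Enpp4, an ectonucleotide pyrophosphatase, had differences of 0.95, 1.54, 1.38 and 1.08, and Slc26a2, a sulphate transporter, of 0.63, 1.01, 1.17 and 1.05. Cidea, a protein of lipid droplets, instead reached 3.29 at 48 h from 0.77 at 2 h. Over all arrays the 2 agents did not overlap for 12 of the 19 genes. The 7 genes lower from 6 h were Fst, Ndrg1, Nefl, Pim2, Slc17a9, Slc27a2 and Vrtn, of which 4 did not overlap. Both classes were chosen by their differences on these same arrays, so these counts are no separate support. Slc27a2, a fatty acid transporter and acyl-CoA synthetase, went furthest, with differences of -0.28, -1.20, -2.13 and -3.52. Fst, the secreted antagonist of activins, had differences of -0.72, -1.02, -1.72 and -1.15.

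The vehicle arrays lay on opposite sides of all 4 BMS641 arrays for 17 of these 37 genes, among them 7 of the 10 higher from 2 h and 8 of the 19 higher from 6 h. Vehicle replicate 1 lay above all 4 BMS641 arrays for 9 of the 10 genes higher from 2 h and for 14 of the 19 higher from 6 h. Vehicle replicate 2 lay below all 4 for 8 of the 10 and for 13 of the 19. Calcoco2 was at 8.37 in replicate 1 and 4.86 in replicate 2, and between 5.21 and 5.69 with BMS641. The share of all genes tested with the vehicle arrays placed in these ways was not counted, so the counts are no result about these 37 genes. The paired comparison uses neither vehicle array.

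An early difference did not always last. Of 70 genes 2-fold apart at 2 or 6 h, 37 kept the difference to 48 h and 33 did not, 15 of them apart at 2 h and the other 18 at 6 h. Of the 33, 7 were 2-fold apart again or still at 24 or 48 h. The other 26 were 2-fold apart at 1 early time and at neither late time. Each of those 26 rests on 1 array of each agent, and whether they are passing responses or scatter between arrays was not tested. Pim1, a kinase downstream of cytokine receptors, had differences of 0.92 and 1.31 at 2 and 6 h and of 0.07 and -0.37 at 24 and 48 h. Hbegf, a ligand of the EGF receptor, and G0s2, an inhibitor of triglyceride lipase, had differences of 1.01 and 1.31 at 2 h and of -0.04 and -0.31 at 48 h. Nrip1, a corepressor of nuclear receptors, had differences of 0.77, 1.06, 1.57 and 0.89, and so left the 2-fold class only at the last time. Among the 33 were 6 olfactory or vomeronasal receptors, which are known from sensory neurons. The share of such receptors among all genes tested was not counted, so the 6 are no result about them. Id3, an inhibitor of basic helix-loop-helix factors, was the 1 gene 2-fold apart in both directions, at 0.03, 1.06, -0.95 and -1.70.

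Tested over all 4 pairs with time as a block, 79 genes rose (0.396% of 19938) and 23 fell (0.115%) with BMS961 against BMS641, 0.512% in all, at a Benjamini-Hochberg adjusted p under 0.05 in limma. All 102 had the same sign at all 4 times, and 24 of the 79 and 7 of the 23 changed 2-fold or more on average. The test favours such genes, because a difference that varies between times adds to the spread. After the genes higher from 2 h, the largest rises were those of Cdk15 (1.75 ± 0.24, adjusted p = 0.0368), a cyclin-dependent kinase relative, and Fam81a (1.46 ± 0.13, adjusted p = 0.01). Camk2n1, an inhibitor of CaM kinase II, rose by 1.31, Grasp, a scaffold of membrane trafficking, by 1.24, Enpp4 by 1.24, Acp5, a secreted acid phosphatase, by 1.23 and Dmrt1, a factor of germ cells and testis, by 1.23.

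The falls over all times were led by Otx2. Ildr1, a protein of tricellular junctions, fell by 1.21 ± 0.19 (adjusted p = 0.047), Fst by 1.15 ± 0.15 (adjusted p = 0.0282) and Sox11, a factor of neural progenitors, by 1.13 ± 0.17 (adjusted p = 0.0426). Efnb2, an Eph receptor ligand, fell by 1.1, Pim2, a kinase that promotes survival, by 1.06, and Slc17a9, a vesicular transporter of ATP, by 1.05. Foxd3, a factor of the epiblast and neural crest, fell by 0.98 and Neurog3, a proneural factor, by 0.86. Smaller falls were those of Phyhipl (0.81), Nr1d1, a repressor of the circadian clock (0.74), Shc4 (0.71), Zfp36l2, which destabilises mRNAs (0.68), Fut9 (0.67) and Fgf17 (0.64). Pim2 and Otx2 were also more than 2-fold lower at 48 h than at 2 h of BMS641.

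The count over all times changed with the pair that was left out. It became 4 higher and 0 lower without the 6 h pair, 2 and 1 without the 24 h pair and 15 and 2 without the 48 h pair, and 93 and 47 without the 2 h pair. With the 12 arrays of the 3 BMS compounds in the fit it was 529 and 484, and with no time block 25 and 2. The fit of 12 arrays had separate early and late terms, averaged for this count. It thus differed from the main fit in its model as well as in its spread. Of the 30 genes named for this test Cyp26a1 and Aqp3 kept their call whichever pair was left out, 27 lost it without the 6 h pair and 27 without the 24 h pair. After quantile normalization 9 of the 30 lost it, namely Stra8, Cdk15, Camk2n1, Acp5, Ildr1, Sox11, Foxd3, Phyhipl and Zfp36l2, at adjusted p-values from 0.053 to 0.0663.

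At 2 and 6 h alone the mean difference was called for 5 genes higher (0.0251%) and 0 lower, although 1741 genes (8.73%) had an unadjusted p under 0.05 in the same limma fit. The 5 were Cyp26a1 (3.66 ± 0.22, adjusted p = 0.00257), Aqp3 (2.76 ± 0.16, adjusted p = 0.00257), Dusp9 (1.31 ± 0.11, adjusted p = 0.024), Pmepa1 (1.16 ± 0.10, adjusted p = 0.024) and Plk3 (1.12 ± 0.11, adjusted p = 0.0348). Otx2 and Adgra2 missed at an adjusted p of 0.0532, and Rarb and Kit at 0.0626. When the spread came from 16 retinoid arrays, only the call of Cyp26a1 was kept among the 5, and Dusp9, Pmepa1 and Plk3 lost theirs without the 24 h or the 48 h pair as well. The counts were 2 and 1 without the 24 h or the 48 h pair. Without the 2 h or the 6 h pair the early value is the difference of 1 pair. The counts without either, listed with the processing, are therefore no check on the early calls.

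At 24 and 48 h the mean difference was called for 666 genes higher (3.34%) and 573 lower (2.87%), 6.21% in all. Of these, 180 and 121 changed 2-fold or more. With each array centred on its median the split turned, at 735 higher and 1150 lower. Without the 24 h or the 48 h pair the late value is the difference of a single pair. The counts without either, listed with the processing, are therefore no check on the late calls.

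The largest late rise was that of Calcoco2, whose log2 levels at 24 and 48 h were 9.82 and 10.21 with BMS961 and 5.69 and 5.32 with BMS641 (4.51 ± 0.27, 22.8-fold, adjusted p = 0.000256). These are values of its brightest probe set, and on its other one the differences were 2.84 and 2.74. Stra8 followed with 4.27 ± 0.47 (adjusted p = 0.00277), then Cyp26a1 with 4.21 ± 0.22 and Aqp3 with 4.01 ± 0.16. Gata6 had levels of 9.42 and 10.93 against 6.21 and 6.40, a rise of 3.87 ± 0.27 or 14.6-fold (adjusted p = 0.000436). In these 5 genes each late array of BMS961 stood above every array of BMS641. They were chosen for their late differences on these same arrays, so this follows in large part from that choice.

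Fbp2, a fructose bisphosphatase of gluconeogenesis, rose by 3.40 ± 0.36 (adjusted p = 0.00254), with levels of 9.44 and 11.33 against 6.99 at both times. Pdgfra, the PDGF receptor carried by primitive endoderm, rose by 3.33 ± 0.55 (adjusted p = 0.0135), most of it at 48 h, where its level was 9.98 against 5.16. Hoxa5, a homeobox factor of anterior-posterior patterning, rose by 3.28 ± 0.14 (adjusted p = 0.000141), with levels of 8.42 and 8.49 against 5.01 and 5.35. Dhrs3 rose by 2.89 ± 0.20 (adjusted p = 0.000436). The calls of Stra8, Fbp2 and Pdgfra were lost when the prior spread was allowed to depend on the level, at adjusted p-values of 0.128, 0.0985 and 0.24, and so were those of 2 genes that fell late, Slc27a2 (0.107) and Enpp3 (0.0513).

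The largest late fall was that of Slc27a2, with log2 levels of 7.21 and 5.75 at 24 and 48 h of BMS961 against 9.35 and 9.27 with BMS641 (-2.83 ± 0.31, adjusted p = 0.003). Platr8, a long noncoding RNA of pluripotent cells, went from 5.81 at 2 h to 3.17 at 48 h of BMS961 and stayed between 5.73 and 6.16 with BMS641 (-2.71 ± 0.14, adjusted p = 0.000176). Dnmt3l, the cofactor of de novo DNA methylation, had late levels of 7.73 and 7.01 against 10.12 and 9.68 (-2.53 ± 0.14, adjusted p = 0.000218). For Platr8 and Dnmt3l each late BMS961 array lay below every array of BMS641, which is likewise no separate support.

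Lefty2, a secreted inhibitor of NODAL, fell by 2.39 ± 0.20 on the log2 scale (adjusted p = 0.000966) from levels of 8.79 and 8.70 to 6.85 and 5.86. Trh, the precursor of thyrotropin-releasing hormone, fell by 2.37 ± 0.12 (adjusted p = 0.000176), from 11.31 and 10.78 to 9.09 and 8.26. Ntn1, the guidance cue netrin 1, fell by 2.22, Enpp3 by 2.17, Socs2, a suppressor of cytokine signalling, by 2.14, Pcolce2, an enhancer of procollagen processing, by 2.06 and Otx2 by 2.02. Vehicle replicate 1 was closer to BMS961 than replicate 2 was for Slc27a2, Platr8 and Dnmt3l, and further from it for Lefty2.

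**Figure D3:**
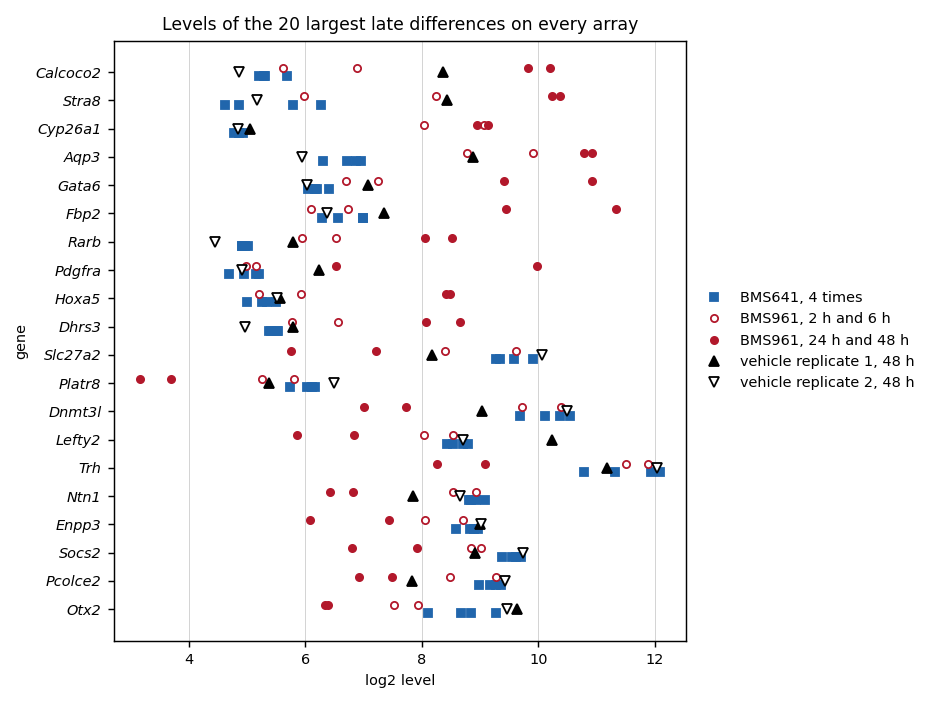
Log2 level on every array of both agents and of the vehicle for the 10 largest late rises and the 10 largest late falls, with the early and late times of BMS961 as open and filled circles. The filled circles stand apart from the BMS641 squares for all 20 genes, which follows in large part from choosing the genes by these late differences. The vehicle triangles differ from each other by up to 3.51 (Calcoco2).

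The difference between the agents itself changed from the early to the late pair of times for 62 genes, 37 with a more positive (0.186%) and 25 with a more negative (0.125%) late difference, 0.311% in all, and all 62 were also called late. The largest were Calcoco2 (3.51 on its brightest probe set), Hoxa5 (3.09), Gata6 (3.01), Dsc2, a desmosomal cadherin (2.61), and Aard (2.33). On the lower side they were Platr8 (-2.36), Lefty2 (-2.20), Dnmt3l (-2.13), Trh (-2.05) and Enox1 (-1.96). Hoxa5 had early levels of 5.20 and 5.92 with BMS961 against 5.25 and 5.50, and Dsc2 of 4.10 and 4.70 against 4.61 and 4.67, so that the early arrays of both genes overlapped. For Cyp26a1 the same test gave 0.56 ± 0.32 (adjusted p = 0.547) and for Plk3 0.18 ± 0.15 (adjusted p = 0.703). Of the 102 genes called over all times 101 were called late and 0 were called for the change from early to late. The test over all times counts such a change as spread, so the 0 follows largely from the tests and describes no property of the genes. Leaving out any pair sets the early or the late value on 1 pair alone. The counts of that kind, listed with the processing, are therefore no check on this test. How far these calls depend on a single time therefore cannot be told. The call of Gata6 was lost with the level-dependent prior (adjusted p = 0.0847). With the spread of 16 retinoid arrays Hoxa5, Dsc2, Aard and Enox1 kept their calls and the other 6 named genes lost them.

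**Figure D4:**
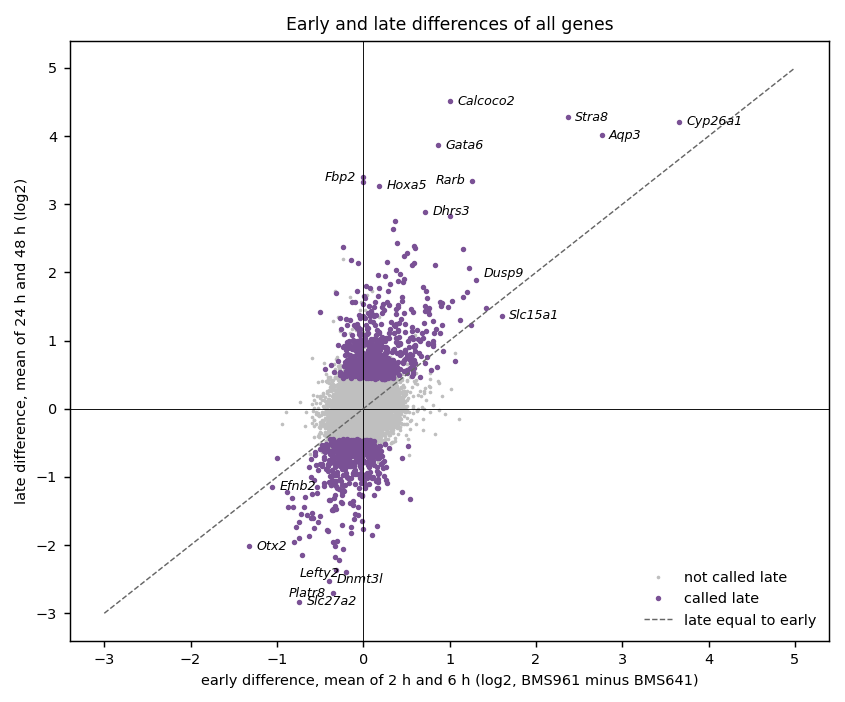
Mean log2 difference between BMS961 and BMS641 at 24 and 48 h against that at 2 and 6 h, 1 point per gene, with the line of equal differences and genes called late in purple. Cyp26a1 (3.66 early, 4.21 late) and Aqp3 (2.76 and 4.01) lie far along both axes, while Hoxa5 (0.19 and 3.28) and Fbp2 (-0.01 and 3.40) lie near 0 on the early axis.

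Among the genes of the retinoid pathway, the receptors came first. Of 6 measured receptor genes 1 rose late (Rarb) and 1 fell, Rxrg, one of the RXR partners, by 1.22 ± 0.20 (adjusted p = 0.0124), with a median over the 6 of -0.22 beside -0.01 over all genes. Of 19 measured genes of retinoid metabolism and binding 4 rose late and 0 fell (median 0.12). They were Cyp26a1, Dhrs3, Stra6, the membrane receptor for retinol binding protein (1.97 ± 0.11, adjusted p = 0.000176), and Crabp2, which carries retinoic acid to the nucleus (1.45 ± 0.13, adjusted p = 0.00111). Stra6 and Crabp2 had differences of 0.36 and 0.07 at 2 h and of 2.04 and 1.59 at 24 h.

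Of 17 measured genes on a list of early retinoid targets, 11 rose late and 1 fell, with a median of 1.45. At 2 h 3 of the 17 were 2-fold higher, and at 24 h 11. Besides those named, the rises were Foxa1, a pioneer factor of endoderm (1.77), Meis1 (2.13) and Meis2 (1.38), which are partners of HOX proteins, and Nrip1 (1.23). The fall was that of Pdgfa, a PDGF ligand, by 1.00. Lists in this and the next paragraphs were drawn from textbook knowledge with earlier results of these arrays known, and their directions are no independent evidence. Over all genes 3.34% were called higher late and 2.87% lower, the shares to set beside each list. In lists of this size a few calls are no result about the members.

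Hox genes of clusters A and B followed at 24 h. In cluster A 5 of 10 measured genes rose late and 0 fell (median 0.47): Hoxa5, Hoxa2 (0.91 ± 0.11, adjusted p = 0.00451), Hoxa3 (0.65), Hoxa4 (0.65) and Hoxa7 (0.55). In cluster B 4 of 9 rose and 0 fell (median 0.46): Hoxb2 (1.40 ± 0.21, adjusted p = 0.00944), Hoxb4 (1.12), Hoxb5 (1.04) and Hoxb9 (0.85). Of 18 measured genes of clusters C and D 0 were called in either direction, with a median of -0.01. At 2 h 0 of the measured Hox genes of the 4 clusters were 2-fold apart. Of 8 Hox cofactors Meis1, Meis2 and Pbx2 (0.91) rose and 0 fell.

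Endoderm factors differed mainly at 24 and 48 h. Of 15 measured endoderm transcription factors 6 rose late and 0 fell, with a median of 0.70: Gata6, Gata4 (1.70 ± 0.31, adjusted p = 0.0201), Foxa1, Sox7 (0.94), Eomes (0.99) and Hhex (0.61). Gata4, a partner of GATA6, had differences of -0.20 and -0.44 at 2 and 6 h, 0.89 at 24 h and 2.52 at 48 h. At 2 h 0 of the 15 were 2-fold higher, at 24 h 2 and at 48 h 8.

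Of 24 measured genes of parietal endoderm and basement membrane 6 rose late and 1, Fst, fell, with a median of 0.49. The late shares over all genes were 3.34% higher and 2.87% lower. Srgn, a proteoglycan core protein, rose by 2.75 ± 0.31 (adjusted p = 0.00327), the laminin chain Lama1 by 1.80 ± 0.41 (adjusted p = 0.0424), and the collagen chains Col4a1 and Col4a2 by 1.01 and 1.23. Pdgfra and Fbln1, the matrix protein fibulin 1 (0.86), made up the rest. Most of these values belong to 48 h, where 11 of the 24 were 2-fold higher and 1 lower. Dab2, an endocytic adaptor of endoderm, had log2 levels of 5.57, 5.52, 6.09 and 9.74 with BMS961 and of 5.86, 5.69, 5.90 and 5.53 with BMS641. It thus stood apart on 1 array, and its late mean of 2.20 ± 0.73 was not called (adjusted p = 0.136). Cubn (3.07), Plat (2.31) and Lamb1 (2.13) also had large differences at 48 h with no late call. Of 15 genes of collagen folding and matrix assembly 2 rose, Serpinh1, the collagen chaperone (1.04), and Fkbp14 (0.72), and 0 fell. Through a match of synonyms Loxl3 stood among the 15 in place of Loxl2. Of 16 visceral endoderm genes Hhex rose and Apoe fell (by 0.52).

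Embryonal carcinoma genes moved in both directions. Of 25 measured pluripotency genes 3 rose late and 9 fell, with a median of -0.34. Tdgf1, the NODAL coreceptor (-1.09 ± 0.23, adjusted p = 0.0324), Utf1 (-1.07), Nr0b1 (-1.07), Lin28a, which blocks let-7 processing (-0.91), Tcl1 (-0.78), Nr5a2 (-0.75), Gdf3 (-0.59), Prdm14 (-0.55) and Fgf4 (-0.50) fell. Tbx3 rose by 1.73 ± 0.13 (adjusted p = 0.000522), Klf4 by 0.92 and Tfcp2l1 by 0.53. Pou5f1, the OCT4 gene, was at 11.94 and 11.87 at 24 and 48 h of BMS961 and at 12.13 and 12.12 with BMS641, and was not called, nor were Nanog and Sox2.

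Of 16 epiblast factors and genes of DNA methylation 2 rose late and 5 fell (median -0.37). The falls were those of Dnmt3l, Otx2, Foxd3 (1.29 ± 0.14, adjusted p = 0.00249), Gbx2 (1.08) and Dnmt3b, a de novo methyltransferase (0.86), and the rises those of its relative Dnmt3a (1.19 ± 0.17, adjusted p = 0.00683) and of Tet2 (0.68). Dnmt3b was 1.33 lower at 24 h and 0.38 lower at 48 h, whereas Dnmt3l was lower by more than 2 units at both.

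**Figure D5:**
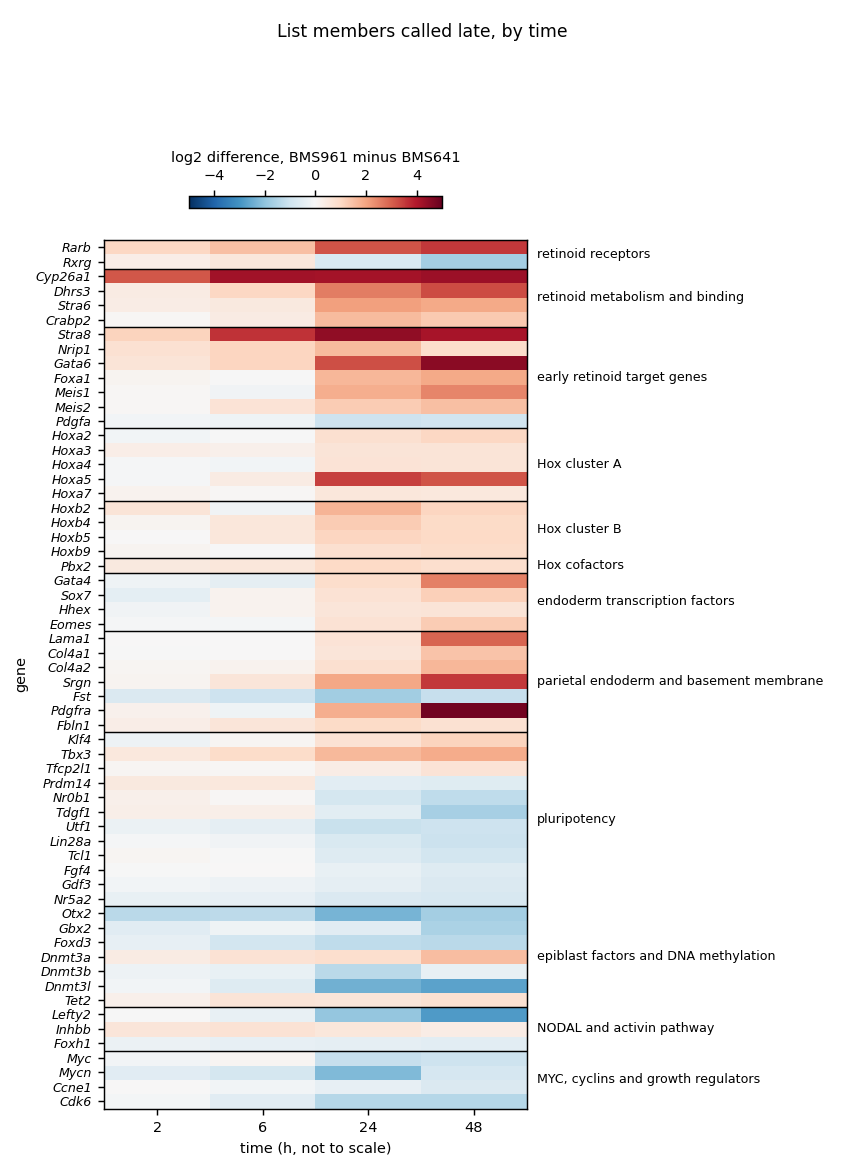
Log2 difference between BMS961 and BMS641 at each time for the 60 members called late in 12 of the gene lists, each gene drawn once, with red for higher and blue for lower. Cyp26a1, Stra8 and Rarb are red from 2 h, Hox genes and endoderm factors turn red at 24 h, basement membrane genes mostly at 48 h, and Otx2 is blue throughout.

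The signalling lists held calls in both directions, beside 3.34% of all genes called higher late and 2.87% lower. Of 19 genes of the NODAL and activin pathway 1 rose late and 5 fell (median -0.02): Lefty2, Fst, Tdgf1, Gdf3 and Foxh1 (0.48) fell, and Inhbb, an activin subunit, rose by 0.47. Of 21 BMP pathway genes 3 rose and 4 fell (median -0.03). Bmp4, the ligand, fell by 0.98 ± 0.14 (adjusted p = 0.0072), as did the target genes Id1 (0.65), Id3 (1.33) and Id4 (1.09), while the target Msx2 (0.94), the inhibitor Smad6 (0.60) and the receptor Bmpr2 (0.52) rose. Of 20 FGF and ERK feedback genes 1 rose, Fgfr4 (0.50), and 6 fell (median -0.20), among them Socs2, the feedback inhibitor Spry4 (1.04) and the ligands Fgf4 and Fgf15 (0.59). Of 21 WNT pathway genes 0 were called, although Dkk1, a secreted WNT antagonist, was 3.09 higher at 48 h on 1 array (late mean 1.73 ± 0.50, adjusted p = 0.0898).

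Growth regulators fell in part, beside 2.87% of all genes called lower late and 3.34% higher. Of 18 genes of MYC, cyclins and growth regulators 0 rose and 4 fell (median -0.15): Mycn by 1.54 ± 0.27 (adjusted p = 0.0172), Cdk6 by 1.42 ± 0.13 (adjusted p = 0.00152), Myc by 1.09 ± 0.11 (adjusted p = 0.00242) and Ccne1 by 0.58. Of 15 CDK inhibitors and growth arrest genes 1 rose, Gadd45b (0.95), and 2 fell, Cdkn1c (1.01) and Btg2 (0.84). Of 19 DNA replication genes 0 were called, with a median of -0.09. Of 18 hypoxia and glycolysis genes 1 rose, Vegfa (0.50), and 5 fell (median -0.27), led by Ndrg1 (1.73 ± 0.15, adjusted p = 0.00111) and the oxygen sensor Egln3 (1.26). A match of synonyms put Pigq, which is another gene, among the 18 in place of Gpi1.

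Of 14 genes of steroid synthesis and gluconeogenesis 3 rose and 1 fell. Cyp11a1, the side-chain cleavage enzyme that starts steroid synthesis, rose by 2.13 ± 0.18 (adjusted p = 0.000881), and Fbp1 and Fbp2, the fructose bisphosphatases, by 2.03 ± 0.13 (adjusted p = 0.000353) and 3.40. Nr5a1, the steroidogenic factor, fell by 1.15 ± 0.17 (adjusted p = 0.00822). Of 17 stress and immediate early genes 1 rose and 2 fell, and of 17 cholesterol synthesis genes 0 rose and 1 fell. Among all genes 3.34% rose late and 2.87% fell. In the lists of other fates the late calls, beside 6.21% of all genes, were 0 higher and 1 lower of 17 neural genes, 1 and 0 of 16 mesoderm and primitive streak genes, 2 and 0 of 12 trophoblast genes, and 0 and 1 of 14 fibroblast genes. The mesoderm call was Eomes, which is also on the endoderm and trophoblast lists, and the other trophoblast call was Tfap2c (0.69).

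BMS641 was not without a course of its own. Between its 2 h and 48 h arrays 18 genes were 2-fold higher and 12 lower. Besides Stra8 and Dusp9 these included Dmrt1 (1.29 higher) and Tbx3 (1.06 higher), and among the lower ones Pim2 (-1.36), Trh (-1.32) and Otx2 (-1.17). Of these 30 genes, 24 differed between BMS961 and BMS641 at 48 h in the direction of BMS641's own course and 6 in the other. Among the 6 was Dusp4, a MAP kinase phosphatase (-1.02 over the course of BMS641, and 1.05 higher with BMS961 than with BMS641). Some of the 24 differed little, such as Epha7 (0.16). The 48 h array of BMS641 enters both values, and the share over all genes was not counted. The split is therefore no result about these genes. At 48 h BMS961 was 2-fold above vehicle replicate 1 at 405 genes and below it at 213, and above replicate 2 at 498 and below it at 299, against 321 and 152 when set against BMS641.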

How the data were processed

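Affymetrix whole-transcript arrays measured total RNA of F9 cells. The authors deposited log2 levels, 1 per probe set and array; the submitters' processing notes name RMA in Affymetrix Expression Console 1.1. No further scaling was applied. The sources used here do not say which arrays were normalized together or when they were scanned. RMA tends to understate folds of dim genes; precision is limited by the few arrays.

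A gene was a probe set with 1 symbol in the platform annotation (21789 probe sets); 999 genes had several, and the brightest on average was taken. The 19938 genes were tested without a filter on level. Probe sets with several symbols (1621) or none listed (12146) were not named.

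The 8 arrays were fitted with limma 3.58.1 in R 4.3.3, with time as a block: ligand over all times (3 residual degrees of freedom, prior 4.86), and ligand within early (2 and 6 h) and late (24 and 48 h) times (2, prior 5.79). The late minus early difference came from the same fit. A gene was called when its two-sided p, adjusted by Benjamini-Hochberg over all genes of a comparison, was under 0.05. The fits were tested on simulated data with known changes. With changes at all times, 100% of the 2-fold changes were called early, and so were 26 unchanged genes. With late changes, 97% of the 2-fold changes were called for late minus early, and so were 32 unchanged genes. An exact sign-flip test of 4 pairs cannot go below p = 0.125, so none is given. Single times were compared by 2-fold differences without a test. Promoter windows were RefSeq's, searched in Python 3.11.15 (pandas 2.3.3, numpy 2.4.6); matplotlib 3.10.9 drew the figures.

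The text names the 15 largest rises and falls called over all times with 1 sign at all times, the 10 largest early and late, the 5 largest for late minus early, those 2-fold apart from 2 h on, and members of 28 gene lists (433 of 463 genes measured). Genes lasting from 6 h are listed in full. Pim1, Hbegf, G0s2, Id3 and genes named for the course of BMS641 were chosen after their values were seen. The comparison, the rule and the lists were chosen with earlier results of these data known. Alternatives were 2 normalizations, a filter on dim genes, the mean of probe sets, a level-dependent robust prior, more arrays for the spread, no time block, each pair left out and other folds; the early fit on 4 arrays alone and single vehicle arrays as 48 h controls were added after seeing the data.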

Additional observations from a re-analysis of the deposited data

Results flagged for a closer look

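The effect of BMS961 against BMS641 differed between the early and the late times by a test of the difference itself. In limma, with time as a block, 37 genes had a more positive late than early difference and 25 a more negative one. Of the genes named, the log2 difference gained 3.51 for Calcoco2, 3.09 for Hoxa5, 3.01 for Gata6, 2.61 for Dsc2 and 2.33 for Aard from 2 and 6 h to 24 and 48 h. It changed by -2.36 for Platr8, -2.20 for Lefty2, -2.13 for Dnmt3l, -2.05 for Trh and -1.96 for Enox1. With the spread of 16 retinoid arrays 4 of these 10 genes kept their calls and 6 lost them, while with 12 BMS arrays all kept theirs. How far the calls depend on a single time cannot be told, because leaving out any pair sets the early or the late value on a single pair.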

How the results depend on the processing

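Of 808 values of 50 named genes under all alternatives, 0 changed sign, 652 kept their side of the threshold and 156 lost their call. Counts are given as higher and lower. Each array centred on its median gave 69 and 33 over all times, 23 and 5 early, 735 and 1150 late, and 120 and 133 for late minus early; quantile normalization gave 43 and 15, 5 and 1, 750 and 679, and 35 and 25. Genes above the median level gave 71 and 19, 15 and 2, 863 and 964, and 102 and 81, the mean of the probe sets 11 and 2 early, and the level-dependent robust prior 108 and 48, 78 and 15, 1017 and 1109, and 216 and 229. Calls of 2-fold or more numbered 24 and 7 over all times and 180 and 121 late. With 12 arrays for the spread the counts were 529 and 484, 17 and 2, 734 and 683, and 82 and 55, and with 16 arrays 230 and 221, 1 and 0, 312 and 329, and 12 and 6. In these 2 fits the difference over all times was the average of separate early and late terms, unlike the single term of the main fit. The fit with no replicate block (no time block) gave 25 and 2, and the early fit on 4 arrays alone, chosen after seeing the data, 2 and 1. With each pair left out in turn the counts ran from 2 to 93 and from 0 to 47 over all times, from 2 to 36 and from 1 to 5 early, from 124 to 957 and from 90 to 795 late (501 and 293 without the 24 h pair), and from 0 to 196 and from 0 to 95 for late minus early (65 and 37 without the 2 h pair, 117 and 86 without the 6 h pair). At 1.5-fold the single times gave 252 and 76, 173 and 152, 511 and 420, and 934 and 608, and lasting classes of 33, 58, 277 and 566 higher and 10, 35, 203 and 360 lower. At 3-fold they gave 2 and 1, 6 and 0, 52 and 26, and 111 and 50, with classes of 2, 2, 35 and 72 higher and 0, 0, 17 and 33 lower. Centring gave 14 and 9 at 2 h and 53 and 6 at 6 h. With vehicle replicate 2 in place of BMS641, 498 and 299 genes were 2-fold apart at 48 h. Why the counts moved with centring, the prior and the spread was not tested. A left-out pair has fewer arrays by construction. Without the 2 h or the 6 h pair the early value rests on 1 pair, and without the 24 h or the 48 h pair the late value does. Counts of the early, late or late minus early test that use such a value are no check on that test. No paired analysis by replicate number was possible because the retinoid groups had 1 array each; time was the block.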

Other observations

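Probe sets without a listed gene were left out of the comparisons. Of 12146 such probe sets, 239 were 2-fold higher and 261 lower with BMS961 than with BMS641 at 2 h, and 200 and 192 at 48 h. Only 1 of them was 2-fold higher at all 4 times, probe set 10340909, with differences of 1.75, 1.35, 1.46 and 1.96, and 0 were lower at all 4. From 6 h on, 3 were higher and 0 lower. Of 1621 probe sets with several symbols 0 were 2-fold apart at 2 h, and 3 higher and 6 lower at 48 h.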
